A study of Mus musculus with 4 samples.

Results

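The collagen-rich spots of a mouse heart section taken 7 days after myocardial infarction (MI) were compared with the collagen-poor, remote spots of the same section. Both groups were chosen by expression. In each spot the share of mRNA molecules from Col1a1, Col1a2 and Col3a1 was computed, the genes of the chains of type I and type III collagen that form the bulk of a cardiac scar. The 12% of spots with the highest share were taken as collagen-rich and the 50% with the lowest share as remote. This gave 205 collagen-rich spots, 856 remote spots and 651 spots in between, called intermediate, out of the 1712 spots kept in the section. The section held 2184 spots and the series 9102 in 4 sections.

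Spatial transcriptomics on a Visium slide collects mRNA on a grid of printed spots, each carrying a barcode of its own, and a spot can hold several cells of different types. The series had 1 heart section from 1 adult ICR mouse, 12 weeks old, at each of days 1, 4, 7 and 14 after MI, which was caused by tying off the LAD, the artery that supplies the front wall of the left ventricle, for good. All mice had this ligation and no sham section was used here, so the remote spots are tissue of an injured heart and not of a healthy one. The study's methods give the mice as female Hsd:ICR (CD1), an outbred stock without a transgene, and the sections as fresh frozen and 10 µm thick. The "remote" spots are remote by their collagen share only, since positions and images were not used.

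With 1 section per day, the spots are not replicates and no test between groups was possible. Levels are therefore given in CPM, that is as the UMIs of a gene per 1000000 UMIs of a group of spots, not counting the 3 genes of the rule, where a UMI is the random tag that tells captured mRNA molecules apart. Their intervals are exact 95% Poisson intervals, and those of log2 ratios are exact conditional 95% intervals. Both cover counting error only and leave out the spread between mice. In these spots, fewer cells of a type and less RNA per cell cannot be told apart.

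After an infarct, dead cardiomyocytes are cleared by macrophages, and resident fibroblasts are activated, divide, acquire contractile proteins and secrete matrix. The collagen chains are modified and folded in the endoplasmic reticulum, trimmed outside the cell, cross-linked by lysyl oxidases and bound by proteoglycans and by matricellular proteins, which regulate cells more than they bear load. Matrix metalloproteinases degrade the matrix and tissue inhibitors of metalloproteinases (TIMPs) hold them in check. TIMP1 also acts as a growth signal, and Lrp1 and Cd63 are among its receptors.

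The genes of the rule are given as a description, since they chose the spots. In the collagen-rich spots they held 4.17% to 9.05% of a spot's UMIs, with a median of 5.58%, against at most 0.148% and a median of 0.0793% in the remote spots. The last spots inside the limit had 4.173% and 4.174%, and the first outside it 4.124% and 4.109%, so the limit cut through a continuous series of spots. Summed over spots, Col1a1 reached 20717 CPM against 252 in the remote spots, Col1a2 18667 against 228.5 and Col3a1 21050 against 331. Ranking all spots by Fn1, Sparc and Bgn, genes of the matrix that the rule did not use, found 164 of the 205 spots again, or 80%.

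**Figure D1:**
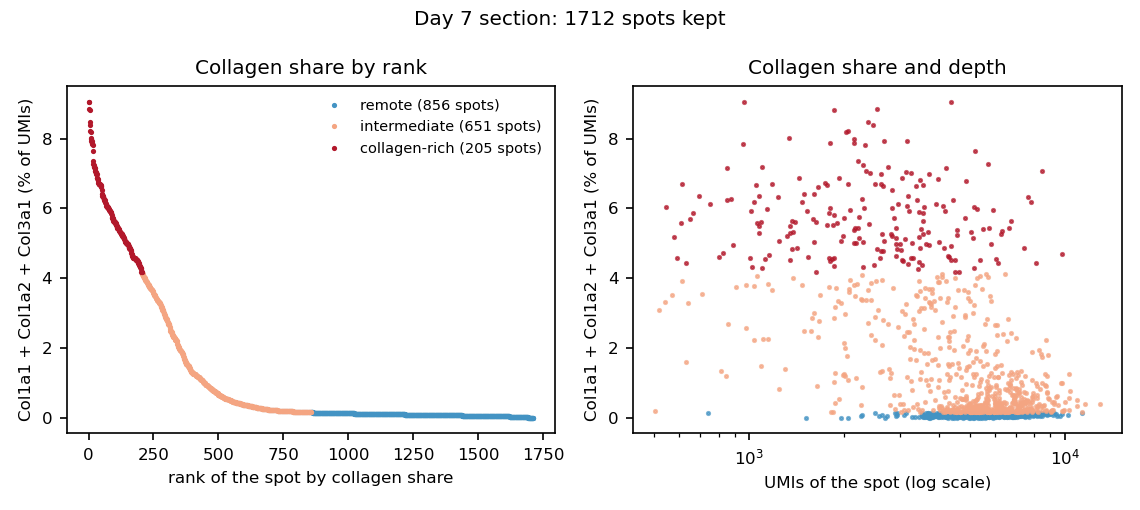
Share of UMIs from Col1a1, Col1a2 and Col3a1 in each of the 1712 spots kept on day 7, by rank of the spot (left) and against the UMIs of the spot on a log axis (right), with 1 point per spot coloured by group. The 205 collagen-rich spots lay between 4.17% and 9.05% and held fewer UMIs than the remote spots, with medians of 2510 and 5481.

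The plot of collagen share by rank shows no gap between the groups. Collagen-rich spots were shallower, with a median of 2510 UMIs (547 to 9816) and 1420 genes, while remote spots had a median of 5481 UMIs (740 to 11337) and 1653.5 genes. In total the groups held 580453 and 4770250 UMIs, and a count of 0 allows a level of up to 5.48 CPM in the collagen-rich and 0.629 CPM in the remote group (3 counts each). Mitochondrially encoded transcripts took 3.11% of the UMIs of collagen-rich, 20.8% of intermediate and 29.0% of remote spots. Hemoglobin transcripts, a sign of blood, took 0.0858% and 0.381% in collagen-rich and remote spots. The 4 sections share 1332 spot barcodes, which are positions of the printed array and not shared cells.

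Of 7726 genes with at least 50 UMIs over both groups, 3644 (47.2%) were at least 2-fold higher in the collagen-rich spots and 1022 (13.2%) at least 2-fold lower. At 4-fold the counts were 1402 (18.1%) and 532 (6.89%). The median gene was itself higher, by 0.91 on the log2 scale. Counted from the median gene, 1538 genes (19.9%) were at least 2-fold above it and 1906 (24.7%) at least 2-fold below, and TMM scaling gave 1519 and 1921. With mitochondrial UMIs left out of the totals the median gene was at 0.47, 2520 genes were higher and 1367 lower. Lists of genes are therefore given by their log2 ratios against remote spots and by how many members were 2-fold away from the median gene, and the counts are to be read against these shares of all genes. Genes with few remote UMIs could reach the minimum only by being higher, so their calls were fixed by the filter. This holds for each list below, also where it is not repeated.

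The 15 genes with the highest ratios were mostly secreted matrix and macrophage genes. Spp1, which encodes osteopontin, a phosphoprotein of macrophages and activated stromal cells, led with 853 CPM (777.5 to 934) against 2.73 (1.45 to 4.66), a log2 ratio of 8.29 (7.50 to 9.21). Next came Gpnmb, a membrane glycoprotein of macrophages that take up lipid, with a log2 ratio of 8.00 (6.61 to 9.90), and Hp, the hemoglobin-binding haptoglobin, also with 8.00 (7.10 to 9.07). The intervals of these first genes overlap, so their order is not settled. The other members were Cthrc1 (7.26), Tnc (7.22), Col11a1 (7.13), Col12a1 (7.12), Ltbp2 (6.93), Timp1 (6.81), Lox (6.60), Lgals3 (6.56), Postn (6.50), Acp5 (6.43), Sfrp2 (6.37) and C1qtnf6 (6.36). All of these had at least 100 UMIs in the collagen-rich spots by the rule that named them.

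Postn, which encodes periostin, a matricellular protein made by activated cardiac fibroblasts, had a median of 53.8 UMIs per 10000 in the collagen-rich spots (0 to 196) and of 0 in the remote spots (0 to 6.89). It was seen in 201 of 205 collagen-rich spots and 247 of 856 remote spots. The gene lies on chromosome 3 from 54361109 to 54391037 on the plus strand of GRCm38. Its summed level was 5883 CPM (5681 to 6089) against 64.8 (57.8 to 72.5), a 90.7-fold difference. Fn1, fibronectin, was close behind in size, with 5426 CPM (5233 to 5625) against 71.3 (64.0 to 79.3) and a median of 49.2 UMIs per 10000 (0 to 128) against 0 (0 to 7.06). Sparc, a collagen-binding glycoprotein that helps procollagen to form fibrils, was present in every collagen-rich spot, with 16.0 to 248 and a median of 130 UMIs per 10000 against a median of 4.50 and at most 25.6 in remote spots.

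Other genes of the highest group were patchy. Cthrc1, a secreted protein of activated fibroblasts, was found in 156 of 205 collagen-rich spots with a median of 6.41 and at most 34.3 UMIs per 10000, and in 25 of 856 remote spots. Tenascin C (Tnc) was found in 116 spots and Spp1 in 98, so that the median spot had no Spp1 UMI at all while the highest had 58.8 per 10000. Because the groups differ in depth, the expected share of spots with a UMI was also computed at 1000 UMIs a spot, over the 187 collagen-rich and 855 remote spots that deep. At that depth it was 33.9% against 0.292% for Spp1, 51.4% against 0.537% for Cthrc1, 33.0% against 0.373% for Tnc and 98.1% against 6.07% for Postn. Without thinning, the shares of collagen-rich and remote spots were 47.8% and 1.52% for Spp1.

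All 12 further collagens, which are fibril-forming, beaded, network-forming or fibril-associated chains outside the rule, were at least 4-fold higher, with a median log2 ratio of 5.35 and all 12 above the median gene by 2-fold or more. They ranged from 2.75 for Col5a3 to 7.13 for Col11a1, a minor fibrillar chain best known from cartilage, with Col12a1, a fibril-associated collagen of tissues under tension, at 7.12. Col11a1, Col12a1 and Col8a2, with 10, 17 and 14 remote UMIs, could reach the minimum only by being at least 4-fold higher, so their calls were fixed by the filter. Col5a1 and Col5a2, whose chains start type I fibrils, reached 2578 and 1849 CPM against 58.7 and 37.5. Together these collagens made up a median of 1.06% of a collagen-rich spot's UMIs (0.187% to 2.75%) and 0.0359% of a remote spot's (0 to 0.206%), and 204 of the 205 collagen-rich spots lay above the highest remote spot. Basement membrane genes were higher to a smaller degree. Of 15 measured, 12 were at least 2-fold higher, 9 of them 2-fold above the median gene, and the median log2 ratio was 1.94. Among them Col4a1 had 811 CPM against 271 and Hspg2, perlecan, 906 against 160, while Lama5 stood at 0.21 and Col18a1 at 4.58 on the log2 scale.

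Of 20 matricellular genes, 18 were at least 2-fold higher, 16 of them 2-fold above the median gene, with a median log2 ratio of 5.33. The thrombospondins Thbs1, Thbs2 and Thbs3 were at 5.76, 5.91 and 5.14, and the WNT1-inducible genes Ccn4 and Ccn5 at 5.99 and 5.85. Ccn1 and Ccn2, known as quickly induced targets of mechanical and TGF-beta signals, were at 1.86 and 1.87. Sparcl1 did not differ by 2-fold (291 CPM against 277, log2 0.07), nor did Smoc2 (0.79). Members with few remote UMIs, as Spp1 (13), Ccn4 (17) and Tnc (18), could reach the minimum only by being higher. All 7 small leucine-rich proteoglycans measured were higher, from Prelp at 2.01 to Fmod, fibromodulin, at 5.99. Bgn, biglycan, reached 7852 CPM against 287. Dcn, decorin, which resting fibroblasts also make, was 4.79-fold higher with 2404 CPM (2276 to 2538) against 502 (482 to 522).

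Of the 22 collagen processing genes measured, all were at least 2-fold higher, 18 of them 2-fold above the median gene, and the median log2 ratio was 3.70. They cover the whole path of a collagen chain. Prolyl and lysyl hydroxylation was represented by P4ha3 (6.82), P3h1 (3.79) and Plod2 (3.96), and folding by the collagen chaperone Serpinh1, with 2359 CPM against 285 and a log2 ratio of 3.05 (2.94 to 3.16). The procollagen proteinases Bmp1 (4.49) and Adamts2 (4.74) and the enhancer Pcolce (3.10) act after secretion. Cross-linking was represented by Lox at 691 CPM (623 to 764) against 7.13 (4.94 to 9.97) and by Loxl1 at 2304 against 76.8. Loxl1 was seen in 195 of the 205 spots and Lox in 150. Members with few remote UMIs, as P4ha3 (6), Lox (34) and Creb3l1 (40), could reach the minimum only by being higher. The count of 22 of 22 was thus partly fixed by the filter. P4ha1 (1.46), P4ha2 (1.20), Plod1 (1.60) and Pcolce2 (1.16) were the 4 members less than 2-fold above the median gene. The secretory pathway as a whole, with chaperones, translocon and coat genes, had 23 of 24 genes at least 2-fold higher and a median of 2.21, but only 14 of 24 were 2-fold above the median gene. Its highest member was Rcn3, a chaperone of the endoplasmic reticulum that binds calcium (1368 CPM against 51.0, log2 4.75).

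Elastic fibre and microfibril genes were at least 2-fold higher in 13 of 15 cases, 12 of them 2-fold above the median gene (median log2 ratio 4.07). Eln, elastin, had 1162 CPM (1073 to 1256) against 42.2 (36.5 to 48.4). It was uneven across the scar, with a median of 6.81 UMIs per 10000 and 123 in the highest spot, and 154 of the 205 spots held any. Mfap4, a microfibril protein, was at 6.35 and Ltbp2, which binds microfibrils, at 6.93. The exceptions Ltbp1 (0.86) and Ltbp4 (0.95) belong to the same family as Ltbp2 and hold latent TGF-beta.

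**Figure D2:**
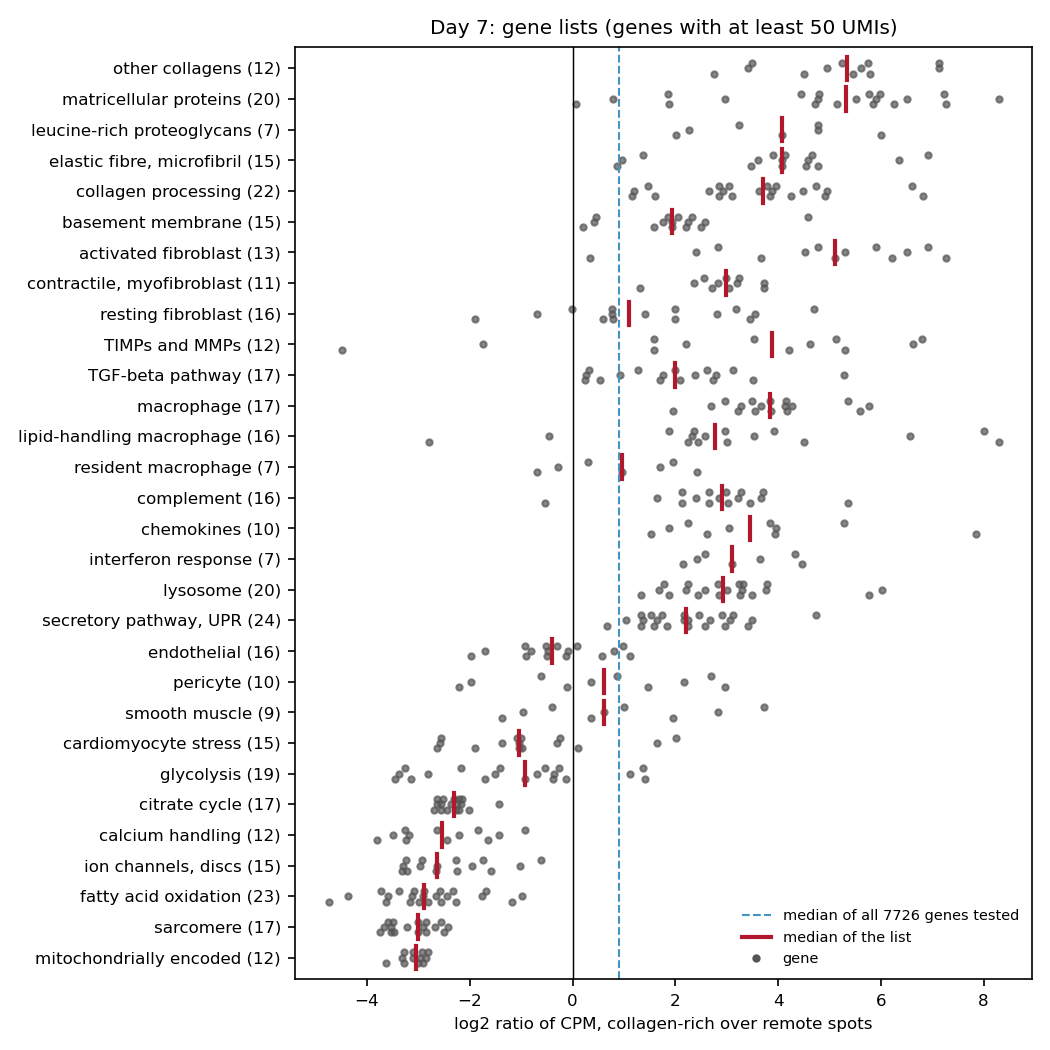
Log2 ratio of CPM, collagen-rich over remote spots, for every gene with at least 50 UMIs in 30 gene lists (grey points, number of genes in brackets), with the median of each list (red bar) and the median of all 7726 genes (dashed line, 0.91), genes at 0 in the collagen-rich spots not drawn. Matrix, activated fibroblast and macrophage lists lay to the right of the dashed line, endothelial, pericyte and smooth muscle lists to its left around 0, and cardiomyocyte and mitochondrial lists on the far left.

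The plot of log2 ratios by list orders these groups from matrix to mitochondria. Activated fibroblast genes were higher in 12 of 13 measured, all 12 also 2-fold above the median gene (median 5.10). They include Runx1, a transcription factor induced in injured heart (124 CPM against 1.68, log2 6.21), Adam12 (5.29) and Fap, the fibroblast activation protein (3.67). Lrrc15, a membrane protein of TGF-beta-activated fibroblasts, had 30 UMIs in 20 collagen-rich spots and none in 4766383 remote UMIs, which makes it at least 87.1-fold higher. Tnfrsf12a was the exception at 0.33. Runx1, Adam12, Cthrc1 and Fap, with 8, 18, 25 and 26 remote UMIs, could reach the minimum only by being higher. The contractile genes that mark myofibroblasts were higher in 11 of 11 measured, 10 of them 2-fold above the median gene, with a median of 2.99, as for Acta2, smooth muscle actin (599 CPM against 84.3, log2 2.83, 2.61 to 3.04) and Tagln, transgelin (3.72). Vascular smooth muscle also expresses both. The smooth muscle myosin Myh11, which myofibroblasts mostly lack, had 27.4 CPM against 17.8 (log2 0.62), below the median gene. Leaving out spots with several UMIs of Myh11, Cnn1 and Lmod1 left 3608 genes higher and 1017 lower. Of the 205 collagen-rich spots, 203 stayed in the group, so these counts of all genes could hardly change. The part of smooth muscle in the levels of Acta2 and Tagln was not tested.

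Genes that mark resting fibroblasts did not move together. Of 16 measured, 8 were at least 2-fold higher, 2 lower and 6 in between, with a median log2 ratio of 1.10, and both the share and the median were near those of all genes. Mgp, matrix Gla protein, had 3115 CPM against 446 and Serpinf1 1209 against 46.6. Pdgfra and Tcf21, receptor and transcription factor of the resting cardiac fibroblast, were at 1.99 and 1.98. On the other side, Gsn, gelsolin, which cardiomyocytes also express, had 550 CPM against 2061 (log2 -1.91), and Scara5, a ferritin receptor, had no UMI against 79, at least 3.02-fold lower. Genes of late scar fibroblasts, called matrifibrocytes, were higher in 6 of 7 measured, all 6 also 2-fold above the median gene, namely Sfrp2 (6.37), Ecrg4 (6.04), Fmod (5.99), Ccn5 (5.85), Comp (5.51) and Mfap5 (4.07), and Clec3b was at 0.74. The other 3 of the 10 listed were under the minimum. Ecrg4, Comp, Ccn5 and Fmod had 13, 13, 18 and 22 remote UMIs. They reached the minimum only through the collagen-rich spots, so their calls as higher were fixed by the filter. Lists overlap, with 47 genes in 2 or more of them. Sfrp2, Fmod and Ccn5 are also counted with the Wnt, proteoglycan and matricellular genes, so these lists are not separate observations. Wnt modulators that fibroblasts secrete were high as well, with Sfrp2 at 712.5 CPM against 8.60, Dkk3 at 325 against 4.20, Frzb at 4.48 and Sfrp1 at 4.14 on the log2 scale, while Wif1 had 1 UMI against 88.

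Of the fibroblast transcription factors, 8 of 11 measured were at least 2-fold higher and all 8 were 2-fold above the median gene. Behind Runx1 came Sox9 (4.37), Scx, scleraxis of tendon (4.16), and Creb3l1, which drives secretory genes (3.84). Runx1, Sox9, Scx and Creb3l1, with 8, 16, 34 and 40 remote UMIs, could reach the minimum only by being higher. Their calls were thus fixed by the filter, and 7 of the 18 listed were under the minimum. Srf, the serum response factor, was lower (-1.13), and Tead1 (0.11) and Meox2 (0.51) did not differ by 2-fold. The cartilage and valve list had too few UMIs to be measured except for Sox9. Its proteoglycan Acan, aggrecan, nevertheless had 26 UMIs in 22 collagen-rich spots and none in the remote spots, at least 75.5-fold higher, and Matn4, matrilin 4, had 36 against 6. Col2a1, the collagen that defines cartilage, had 1 UMI and Chad 3.

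TIMP and metalloproteinase genes were higher in 10 of 12 measured, 8 of them 2-fold above the median gene (list median 3.87). Timp1 (chromosome X, 20870166 to 20874735, plus strand) stood at 1456 CPM (1357 to 1561), 112-fold above the remote spots, a log2 ratio of 6.81 (6.43 to 7.20). A collagen-rich spot had a median of 9.08 and at most 157 Timp1 UMIs per 10000 and a remote spot at most 2.99, and 166 of 205 against 58 of 856 spots held any. Timp1 was thus common but uneven in the scar. Thinned to 1000 UMIs, these shares were 61.5% and 1.25%. Timp2 had 1005 CPM against 87.1 (3.53) and Timp3 258 against 86.0 (1.58). Timp4 ran the other way, with 1 UMI in 205 collagen-rich spots against 196 in the remote ones, a log2 ratio of -4.49 (-9.80 to -2.00). In the remote spots Timp4 stood at 41.1 CPM, below Timp2 and Timp3.

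Among the proteinases, Mmp2, gelatinase A of fibroblasts, was highest in UMIs, with 1993 CPM (1877 to 2115) against 107 and detection in 193 of 205 spots. Mmp12, macrophage elastase, which was chosen after its values were seen, had 57 UMIs against 5 (log2 6.63). Mmp23 (5.13), Mmp19 (4.62), Adamts5 (2.21) and Adamts1 (1.59) were higher too. Mmp15, a membrane-type enzyme, was lower (-1.74). Mmp14, which activates Mmp2, had 21 UMIs against 4 and stayed under the minimum, as did Mmp9 with 33 against 8, and Mmp8, the neutrophil collagenase, had none in either group.

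The receptors and growth factors of the fibroblast and macrophage circuit were higher in 14 of 16 measured (median 2.63, 12 of them 2-fold above the median gene). Lrp1, a scavenger receptor that binds TIMP1, had 733 CPM (663 to 808) against 76.6 (68.9 to 84.9) and was found in 164 of 205 against 294 of 856 spots. Cd63, another receptor for TIMP1, was at 2.57 and its partner protein Cd82 had too few UMIs (11 against 24). Since the remote group held far more UMIs in total, these counts do not mean that Cd82 was lower. Pdgfrb (2.96) and Pdgfra (1.99), the receptors of platelet-derived growth factors, and the ligands Pdgfa (2.53) and Pdgfc (4.39) were higher, and Pdgfb, made by endothelium and macrophages, was not (0.30). Csf1, the survival factor of macrophages that fibroblasts supply, and its receptor Csf1r were at 1.79 and 2.69. Igf1 was at 4.35 (175 CPM against 8.60), Egfr at 3.65 and its ligand Hbegf at -0.90 with 4 UMIs. Osm and Areg had no UMI in either group and Il6 had 3 against 0.

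In the TGF-beta pathway, 12 of 17 genes measured were at least 2-fold higher and none lower (median 1.98), and 9 of 17 were 2-fold above the median gene. Tgfb3 was the ligand that could be measured, with 424 CPM (371 to 482) against 10.9 (8.15 to 14.3), and was found in 133 collagen-rich spots. Tgfb1 and Tgfb2 had 20 and 24 UMIs against 28 and 13, under the minimum. These counts are out of 547373 collagen-rich and 4766383 remote UMIs, so relative to the totals both genes were higher in the collagen-rich spots. The receptors Tgfbr1 and Tgfbr2 were at 3.12 and 2.79, and the target Pmepa1 had 701.5 CPM against 61.7. The endothelial co-receptor Eng (0.26), Tgfbr3 (0.31) and the inhibitory Smad6 (0.25), Smad7 (0.92) and Bambi (0.54) did not differ by 2-fold.

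Macrophage genes were higher throughout the collagen-rich spots. All 17 measured were at least 2-fold higher, all 17 also 2-fold above the median gene, with log2 ratios from 1.95 for Mrc1 to 5.77 for Ctss, the lysosomal cathepsin S, and a median of 3.85. Lyz2, lysozyme, had 4958 CPM (4773 to 5148) against 282 (267 to 297), with a median of 34.2 and at most 187 UMIs per 10000 in collagen-rich spots and a median of 1.91 in remote ones. The complement genes C1qa, C1qb and C1qc of macrophages were at 3.21, 3.27 and 3.67, and the receptors Csf1r and Adgre1 (F4/80) at 2.69 and 4.26. Members with few remote UMIs, as Ms4a7 (30), Adgre1 (34), Cd14 (38) and Mpeg1 (39), could reach the minimum only by being higher. The count of 17 of 17 was thus partly fixed by the filter. As a share of UMIs per spot the macrophage list had a median of 0.799% (0 to 3.21%) against 0.0485% (0 to 0.403%), and 165 of 205 collagen-rich spots exceeded the highest remote spot. Some macrophage RNA was thus found in nearly every collagen-rich spot, and 1 spot had none. Only 11 of 651 intermediate and 88 of 856 remote spots had none, so the groups differed in level more than in presence.

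Genes of lipid-handling macrophages, which appear where cell debris is cleared, were higher in 14 of 16 measured, 13 of them 2-fold above the median gene. Besides Spp1 and Gpnmb, Lgals3, galectin 3, reached 455 CPM against 4.83 and Trem2, a lipid-sensing receptor, 110 against 4.83. Spp1, Gpnmb, Lgals3 and Trem2, with 13, 4, 23 and 23 remote UMIs, could reach the minimum only by being higher, so their calls were fixed by the filter. Apoe, apolipoprotein E, was present in all 205 collagen-rich spots with 8.38 to 281 and a median of 83.8 UMIs per 10000, against a median of 5.32 in remote spots. The exceptions were Lpl, lipoprotein lipase, which heart muscle also makes (396 CPM against 2746, log2 -2.79), and Syngr1, a vesicle protein (-0.46). Arg1, arginase, had 20 UMIs in 13 collagen-rich spots and none in remote ones, at least 58.1-fold higher. Resident macrophage genes moved less, with 3 of 7 measured higher, near the share of all genes, namely Gas6 (2.43), Mrc1 (1.95) and Pf4 (1.71), and with Folr2 at -0.69 and Lyve1 at -0.28, both 2-fold below the median gene.

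Genes of the cytoskeleton with thymosins, annexins and S100 proteins, which moving cells use, were higher in 16 of 16, 15 of them 2-fold above the median gene (median 2.84), from Pfn1, profilin, at 1.82 to S100a4 at 4.40, with Vim, vimentin of mesenchymal cells, at 3.62. In the IGF family 8 of 9 measured were higher (median 2.53) but only 5 of 9 were 2-fold above the median gene, with the binding proteins Igfbp7 and Igfbp4 at 2.68 and 3.53. Lysosomal genes, which macrophages and matrix-degrading fibroblasts use, were higher in 20 of 20, 16 of them 2-fold above the median gene (median 2.93), with Ctsk, the collagen-cutting cathepsin K, at 6.03 and Acp5 among the 15 highest. MHC class II genes were at 3.37 (H2-Aa), 3.64 (H2-Ab1) and 4.28 (Cd74), and interferon-induced genes were higher in 7 of 7 measured, all 7 also 2-fold above the median gene, as for Isg15 (4.32) and Irf7 (4.45). Of 16 complement genes, 15 were higher, 14 of them 2-fold above the median gene, with Cfb at 5.36 and C3 at 3.03. The summed complement list, which includes Clu, was not highest in the collagen-rich spots. It had 6701 CPM there, 7943 in intermediate and 1353 in remote spots. All 10 chemokines measured were higher, 8 of them 2-fold above the median gene, and 12 of the 22 listed were under the minimum. The highest ratios were those of Cxcl5, which recruits neutrophils (53 UMIs against 2, log2 7.85), and Ccl8 (5.28), with Cxcl12 at 2.62. Cxcl5 and Ccl8, with 2 and 29 remote UMIs, reached the minimum only through their UMIs in the collagen-rich spots. Their calls as higher were thus fixed by the filter. The same holds in the lists above for Ctsk (22 remote UMIs), Acp5 (11), Isg15 (30), Irf7 (27) and Cfb (11). Ccl21a has near-identical copies in the mouse genome and its value of 1.52 is uncertain for that reason.

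Other immune cells left few UMIs. T and NK cell genes summed to 19 UMIs in the collagen-rich group and 21 in the remote group, which is 34.7 against 4.41 CPM, 7.88-fold higher (4.01 to 15.4). Dendritic cell genes summed to 31 and 54 UMIs, 56.6 against 11.3 CPM, 5.00-fold higher (3.11 to 7.92), and mast cell genes to 5 and 22, with a ratio of 1.98 (0.585 to 5.36). None of these lists had a gene with 50 UMIs, so the sums rest on few molecules. In the neutrophil list S100a9 was at 4.24 (71.2 CPM against 3.78) and G0s2, also a lipase inhibitor of muscle and fat, at -2.61, and 156 of 205 spots held no UMI of the list. The immunoglobulin light chain gene Igkc was at 5.29 with 112 UMIs, but 65 of these came from 1 spot and only 24 spots held any. Igha, which was chosen after its values were seen, had 92 UMIs in 15 spots and 76 of them in 1 spot. Both values thus rest mostly on 1 spot each.

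Vessel genes behaved unlike the matrix and macrophage genes. Of 16 endothelial genes, 13 lay within 2-fold of the remote spots, 1 was higher (Egfl7, 1.11) and 2 were lower, and the median log2 ratio of -0.39 put 11 of them 2-fold below the median gene. Cdh5, VE-cadherin, had 85.9 CPM against 91.5, Pecam1 was at 0.98 (0.52 to 1.42) on the log2 scale and Kdr, the VEGF receptor, had 76.7 (55.3 to 104) against 110 (101 to 120). The lower genes were Gpihbp1, which holds lipoprotein lipase on the capillary wall (-1.98), and Cd300lg, a capillary receptor (-1.71), and Fabp4, a fatty acid binding protein, was at -0.93. By spot, the list had a median of 0.139% of UMIs (0 to 0.689%) against 0.183% (0.0207% to 0.474%), so that the groups overlapped almost completely, and 21 collagen-rich spots had none. In the list of activated or venous endothelium, 4 of 5 measured were higher and 2 of 5 were 2-fold above the median gene. The 2 were Plvap, the protein of fenestral diaphragms, at 4.06 (126 CPM against 7.55), and Vcam1 at 3.90. Vcam1 is an adhesion molecule that stromal cells also express. With 36 and 35 remote UMIs, both could reach the minimum only by being at least 2-fold higher. Vwf of the same list was at 0.11, and at -0.81 when counted from the median gene.

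Of 9 angiogenesis genes, 4 were higher, a share near that of all genes, led by Hif1a (2.44), and Vegfa, which cardiomyocytes supply, was lower (47.5 CPM against 192, log2 -2.02). Genes of the pericyte list split, with Pdgfrb (2.96), Mcam (2.70), Cspg4 (2.17) and Notch3 (1.47) higher and the channel subunits Kcnj8 (-1.97) and Abcc9 (-2.22) lower, while Rgs5 was at 0.36 (0.12 to 0.59). Whether these RNAs came from pericytes or from other cells of the spots was not tested. In the smooth muscle list 4 of 9 were higher, again near the share of all genes, and Des, desmin, which cardiomyocytes also express, was lower (-1.37). Among 5 lymphatic genes Pdpn, podoplanin, also of activated stroma, was at 4.15 and Prox1, a marker of lymphatic endothelium, at -1.05. The cells that the Prox1 RNA came from were not tested. The list medians of pericyte (0.61), smooth muscle (0.62), angiogenesis (0.83) and lymphatic genes (0.95) were above 0 in CPM, but the first 3 fell below 0 and the last stood at 0.04 when counted from the median gene.

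Cardiomyocyte genes gave the counterpart. All 17 sarcomere genes were at least 4-fold lower in the collagen-rich spots, with log2 ratios from -3.76 to -2.43. Myh6, the alpha myosin heavy chain of adult mouse heart (chromosome 14, 54941921 to 54966927, minus strand), had a median of 7.36 UMIs per 10000 in collagen-rich spots and of 111 in remote spots (57.8 to 174.5), and the groups did not overlap. Its summed level was 868 CPM (791.5 to 949) against 11064 (10970 to 11159), a 12.7-fold difference. Myl2, the ventricular light chain, did not overlap either (0 to 57.9 against 77.2 to 208). The sarcomere list took 0.185% to 4.17% of the UMIs of a collagen-rich spot and 6.03% to 11.7% of a remote one, so that all 205 spots lay under the lowest remote spot, yet each of the 205 held some sarcomere UMIs.

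Lower levels extended to excitation and metabolism. Of 12 calcium handling genes 11 were at least 2-fold lower, with Atp2a2, the calcium pump SERCA, at -3.18 and Hrc at -3.82, and of 15 ion channel and intercalated disc genes 14 were lower, with the gap junction gene Gja1 at -1.59. Fatty acid oxidation genes were lower in 22 of 23 measured (median -2.89), with Fabp3, the heart's fatty acid binding protein, at 427.5 CPM against 5645 and Cpt1b, the muscle carnitine palmitoyltransferase, at 16.4 (7.52 to 31.2) against 340 (324 to 357). Citrate cycle genes were lower in 17 of 17 (-2.69 to -1.44) and the mitochondrially encoded genes in 12 of 12 (-3.64 to -2.81). By spot, mitochondrially encoded genes took 1.38% to 11.5% of UMIs in the collagen-rich group and a median of 28.7% in the remote group, and all 205 collagen-rich spots lay under the lowest remote spot.

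Of 19 glycolysis genes 9 were at least 2-fold lower, 3 higher and 7 in between, and 16 were 2-fold below the median gene and none above it. Eno3 and Pgam2, the muscle forms of enolase and phosphoglycerate mutase, were at -3.46 and -3.38, and Slc2a4, the insulin-responsive glucose transporter, at -3.26. The 3 higher genes were the enolase Eno1 (1.40), the glucose transporter Slc2a1 (1.36) and the mutase Pgam1 (1.13). Of the lactate dehydrogenase subunits, Ldhb, the main form in heart, was at -3.15 and Ldha at -0.27. Of the 15 genes with the lowest ratios, 13 had no UMI in the collagen-rich spots, among them Pxmp2, a peroxisomal membrane protein (491 UMIs in remote spots, at least 18.8-fold lower), Asb14 (252, at least 9.65-fold) and Abcc8, a channel-associated sulfonylurea receptor (153, at least 5.86-fold). The other 2 were Rpl3l, a ribosomal protein of striated muscle (4 UMIs against 1466, log2 -5.40), seen in 4 of 205 against 684 of 856 spots, and Myadml2 (1 against 239, log2 -4.78, -10.09 to -2.29). Perm1, a regulator of muscle mitochondria chosen after its values were seen, had 3 UMIs against 685 (ratio 0.0381).

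Most stress genes of cardiomyocytes were lower too. Of 15 measured, 9 were at least 2-fold lower, 2 higher and 4 in between, and 12 were 2-fold below the median gene and 1 above it. Nppa, atrial natriuretic peptide, had 660 CPM (593 to 731) against 163 (152 to 175), with a median of 2.86 and at most 69.5 UMIs per 10000 in collagen-rich spots and a median of 0 and at most 28.3 in remote ones. Clu, the secreted chaperone clusterin, was higher (2227 CPM against 714, log2 1.64). Ankrd1, a stretch-responsive protein of the sarcomere, was lower (698 against 1443, log2 -1.05), but it was higher, at 0.96, when the top 24% of spots was taken in place of the top 12%. Myh7, the fetal heavy chain, was at -0.24, Acta1 at 0.11, Nppb at -2.64 and the small heat shock gene Cryab at -2.57.

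**Figure D3:**
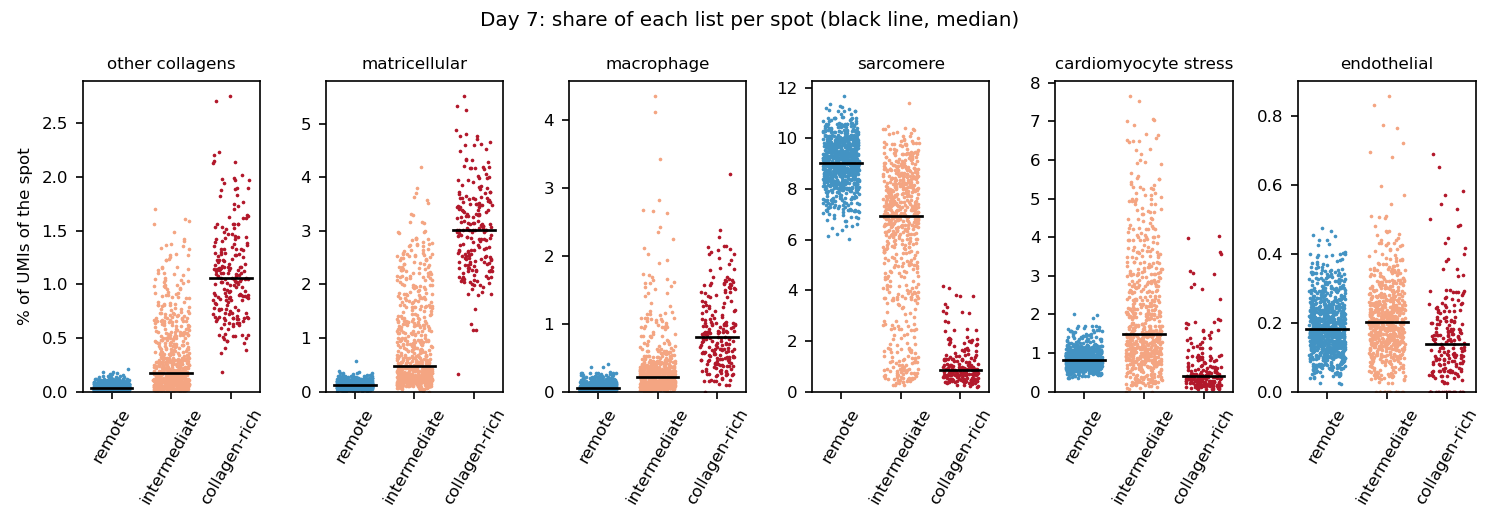
Share of a spot's UMIs (not counting the 3 rule genes) held by 6 gene lists in the remote, intermediate and collagen-rich spots of day 7, with 1 point per spot and a black line at the median. Sarcomere shares of the collagen-rich (0.185% to 4.17%) and remote spots (6.03% to 11.7%) did not overlap, endothelial shares did, and cardiomyocyte stress genes reached their highest shares, up to 7.65%, in intermediate spots.

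The plot of shares per spot places the stress genes between the groups. To follow this, the intermediate spots were split by collagen share into 3 bins of 217 spots and the collagen-rich spots into bins of 69, 68 and 68. From remote through the 3 intermediate to the 3 collagen-rich bins, Nppa had 163, 961, 4099, 4862, 928, 478 and 536 CPM. Clu had 714, 1980, 5773, 11359, 3558, 1676 and 1234 CPM in the same order. Myh7, Ankrd1 and the list as a whole also had their highest level in the third intermediate bin, at 3903, 4501 and 30938 CPM, while Myh6 was lower in each successive bin, from 11064 CPM in the remote to 759 in the last. Stress genes were thus highest in spots of intermediate collagen, where Myh6 stood at 2830 CPM, and the collagen-rich bins were far below them.

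Matrix genes had no such peak. Postn was at 64.8, 181, 990, 3965, 5138, 5237 and 7483 CPM from the remote to the most collagen-rich bin, and Cthrc1 at 5.25, 15.8, 40.7, 315, 657, 835 and 951. Acta2 was also higher in each bin, at 84.3 CPM in remote, 256 in the third intermediate and 462, 594 and 771 in the collagen-rich bins. Within the scar, Col12a1 had 311, 368 and 861 CPM and Fmod 181, 319 and 403 in the 3 collagen-rich bins. Not every matrix gene was like this, since Eln (1407 CPM) and Cilp (280 CPM) had their highest level in the third intermediate bin. Collagen share and these genes are parts of the same total, and the bins are cut on the readout, so the order of the bins is a description.

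**Figure D4:**
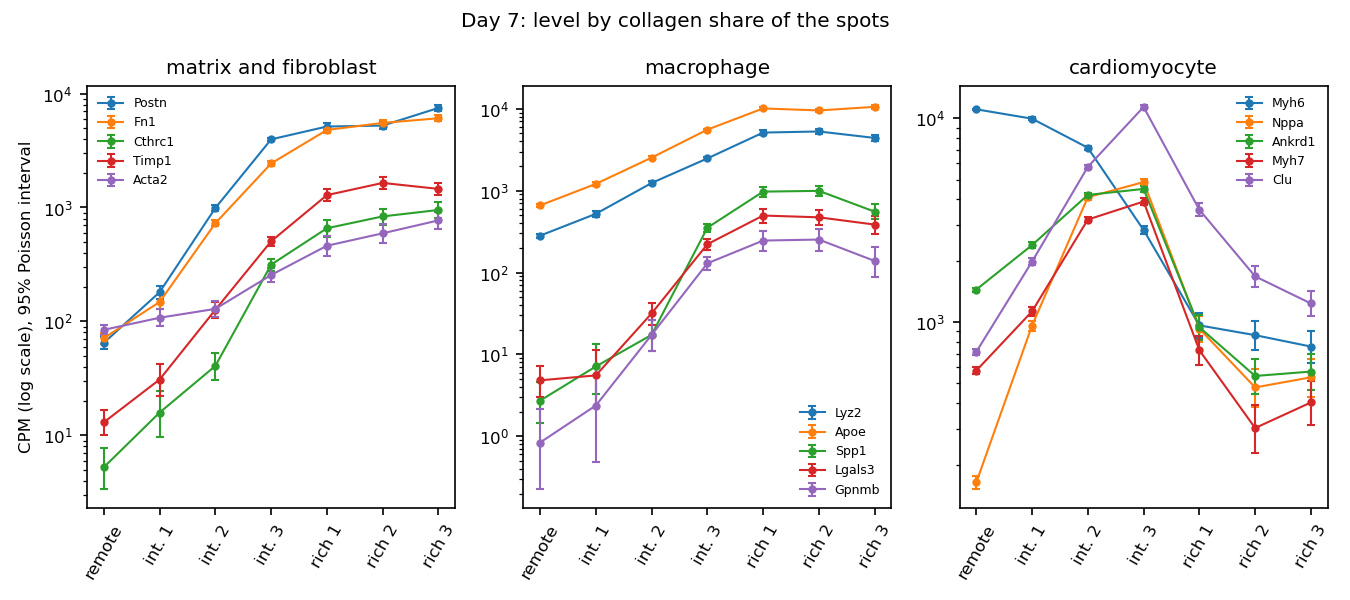
CPM (log scale) with exact 95% Poisson intervals of 15 genes in 7 bins of day 7 spots ordered by collagen share (remote, 3 intermediate and 3 collagen-rich bins), in panels of matrix and fibroblast, macrophage and cardiomyocyte genes. Postn was higher in each successive bin, from 64.8 to 7483 CPM, Spp1 was highest in the first 2 collagen-rich bins at 973 and 995 CPM, and Nppa, Ankrd1, Myh7 and Clu were highest in the third intermediate bin.

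In the plot of levels by collagen bin, macrophage genes levelled off or were lower in the most collagen-rich spots. Spp1 had 973, 995 and 554 CPM in the 3 collagen-rich bins, Gpnmb 246, 253 and 138.5, and Mmp12, again a gene chosen after its values were seen, 145.5, 126 and 30.1. Arg1 had 55.2, 44.0 and 6.02 CPM there. Apoe, in contrast, was level, at 10101, 9545 and 10560 CPM, and the summed macrophage list had 10638, 10452 and 9000. Median depth in these bins was 2917, 2275 and 2341 UMIs per spot.

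Over the 205 collagen-rich spots, Spearman's rho between list shares was given as a description. It was -0.40 for macrophage and sarcomere genes, -0.34 for macrophage and matricellular genes, -0.19 for macrophage genes and the collagen share, 0.50 for matricellular genes and the collagen share and 0.55 for sarcomere and mitochondrially encoded genes. The shares in each pair have the same denominator and depend on depth. Their rho with the UMIs of the spot was 0.28 for macrophage, -0.40 for sarcomere and 0.13 for matricellular genes. Spots with more macrophage RNA thus tended to be deeper and those with more sarcomere RNA shallower, and the part of depth in the relations between lists was not tested.

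Most markers of other cell types that a heart section can hold had few UMIs in the collagen-rich spots. Few UMIs did not mean no difference, since the mesothelial and Schwann sums were above those of the remote spots. Mesothelial genes summed to 79 UMIs (144 CPM against 17.2 in remote spots), 8.39-fold higher (6.08 to 11.6), and none was measured. No UMI of the list was held by 180 of 205 collagen-rich and 784 of 856 remote spots. Msln had 20 UMIs in 8 collagen-rich spots. Without spots holding several mesothelial or adipocyte UMIs, 3557 genes were higher and 1011 lower. Of the 205 collagen-rich spots, 195 stayed in the group, so these counts of all genes could hardly change either. The part of mesothelial RNA in single genes was not tested. Adipocyte genes were absent from 185 of 205 collagen-rich and 591 of 856 remote spots, and their sum was lower (ratio 0.590, 0.377 to 0.885). Adipoq was at 1 UMI, Plin1 at 0 and Plin4, also expressed in muscle, at -2.63. Plin4 held 324 of the 369 remote UMIs of the list. The lower sum and the remote spots with a UMI thus mostly follow Plin4 and say little of adipocytes. Of the Schwann cell list 1 gene was measured, Pmp22, which fibroblasts also express (2.10). No UMI of the list was found in 107 of 205 collagen-rich and 567 of 856 remote spots. With Pmp22 included, the list summed to 298 CPM against 76.6, 3.89-fold higher (3.21 to 4.69). Pmp22 held 306 of the 365 remote UMIs of the list, so the Schwann sum mostly follows this gene. The mesothelial and Schwann sums were higher still in the third intermediate bin, at 258 and 711 CPM. Of atrial markers, Sln and Myl7 had no UMI in the collagen-rich spots and Myl4 had 7, while Nppa and Dkk3 were higher and Stard10 was at -0.34. Proliferation genes had few UMIs each. The whole list of 26 summed to 831 CPM against 274, 3.03-fold higher (2.72 to 3.38). Of 26, 9 were measured and 5 of them were higher, a share near that of all genes. Counted from the median gene, 3 of the 9 were 2-fold above it and 2 were 2-fold below it. Their median was 1.17, or 2.22 with no minimum of UMIs beyond 1 in each group. Mcm6 was at 2.91 and Hmgb2 at 2.81, and Mki67 had 25 UMIs against 24, a ratio of 9.07.

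The same rule was applied to the sections of days 4 and 14 to place day 7 among them. It gave 201 and 244 collagen-rich spots, in which the lowest collagen share was 3.43% and 1.08%, against 4.17% on day 7, so a spot counts as collagen-rich at a different share on each day. Median depth was 5786, 2510 and 1259 UMIs on days 4, 7 and 14 and mitochondrial transcripts took 3.58%, 3.11% and 5.63%. On day 1 the highest share was 2.44% and the section was not set beside the others. With 1 mouse per day, day and animal cannot be told apart, and the values are given side by side without a test.

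Levels in the collagen-rich spots ordered the days by gene. Spp1 had 3520, 853 and 137 CPM on days 4, 7 and 14, Timp1 2947, 1456 and 1079, Lgals3 1041, 455 and 288, and the chemokine Ccl2 250, 69.4 and 58.1. Hmox1, which breaks down heme, had 513, 53.0 and 66.0. Postn (3517, 5883 and 1760), Cthrc1 (730, 806 and 238), Tnc (411, 563 and 148) and Fmod (31.0, 294 and 171.5) were highest on day 7. For Cthrc1 the day 4 and day 7 levels were close in size. Others were highest on day 14, as for Comp (54.0, 124 and 475), C3 (229, 755 and 3296), Dcn (1356, 2404 and 4072) and Igkc (63.7, 205 and 2747). Saa3, an acute phase protein chosen after its values were seen, had 62.0, 126 and 1385 CPM. Fn1 stayed within 5426 and 4470 CPM over the 3 days.

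**Figure D5:**
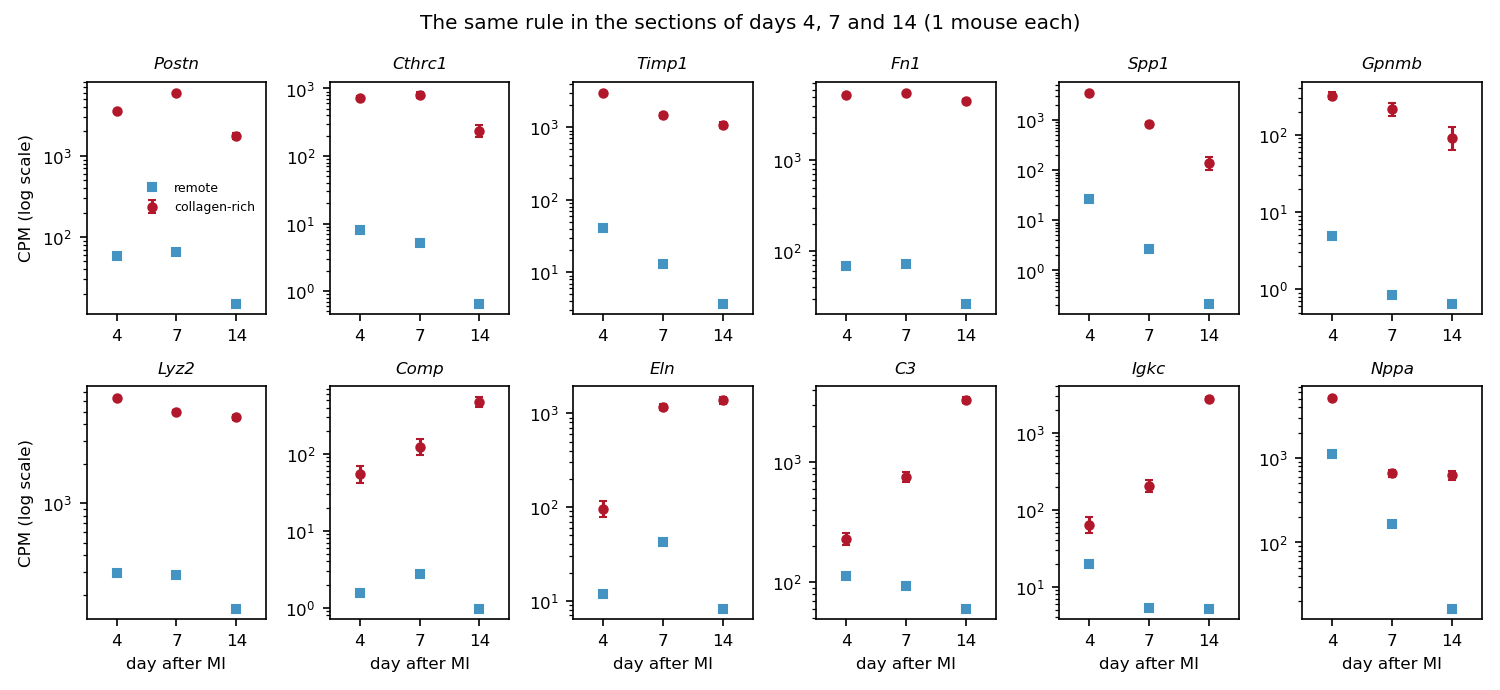
CPM (log scale) of 12 genes in the collagen-rich spots (red circles, exact 95% Poisson interval) and remote spots (blue squares) of the sections of days 4, 7 and 14 after MI, each from 1 mouse. Spp1 was highest on day 4 (3520 CPM), Postn on day 7 (5883 CPM) and C3 and Igkc on day 14 (3296 and 2747 CPM), and in every panel the collagen-rich level was above the remote level of the same day.

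The plot of levels by day also shows the remote spots, which were low for the matrix genes on each day (Postn 58.5, 64.8 and 15.1 CPM). Over all genes tested, 57% of 9248 were at least 2-fold higher and 10.3% lower on day 4, and 52.6% of 8585 higher and 12.1% lower on day 14. By list, matricellular genes were at least 2-fold higher in 18 of 20, 18 of 20 and 18 of 19 measured on days 4, 7 and 14, and macrophage genes in 18 of 18, 17 of 17 and 17 of 17. The summed macrophage level was 12292, 10079 and 9944 CPM and that of activated fibroblast genes 6850, 10006 and 3953. Cell cycle genes had 1410, 831 and 678 CPM, with 21 of 23 measured genes higher on day 4, 5 of 9 on day 7 and 7 of 9 on day 14. Nppa was 5165 CPM in the collagen-rich spots of day 4 and 660 and 625 on days 7 and 14, and complement genes had 6961, 6701 and 12356 CPM. The sarcomere list was lower on each day, at 11050, 9706 and 18222 CPM against 77906, 90575 and 85403 in remote spots.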

How the data were processed

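Visium libraries of 4 heart sections were used. Per the labels and the study's methods, the authors aligned slide images by hand, mapped reads to mm10 with Space Ranger 1.3.0 and deposited the filtered matrices as raw UMI counts per gene and spot. Their processing notes also name Seurat 4.1.1. The study removed spots over 1% hemoglobin and spots near the tissue edge by hand, and the second step was not repeated here. The day 7 section held 10983077 UMIs in 2184 spots.

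From these counts, spots were left out for a share of Hba and Hbb genes (8 genes) over 1% (336 spots), under 500 UMIs (19), and 10 or more UMIs of 10 skeletal muscle genes (132), some for several reasons. The 1712 spots left held 8796874 UMIs. Counts of 40 features that share a symbol were added to each other, leaving 32245 symbols. Groups of spots were summed and divided by their totals without Col1a1, Col1a2 and Col3a1. Genes with at least 50 UMIs over both groups were compared and called at a ratio of 2 or more either way. A gene with few remote UMIs could reach this minimum only by being higher in the collagen-rich spots. Genes at 0 were given as a bound against 3 counts in the group, which leaves out the counting error of the other group. No test was run, no doublet caller applies to spots, and intervals were tested on simulated counts. Named were the 15 highest and 15 lowest ratios (at least 100 UMIs in the higher group), the study's own genes, and, in each of 51 lists, the 3 members with most UMIs and the highest and lowest ratio (at least 20 UMIs), with other members only beside their list's counts. The members and lists were chosen with earlier results of these data known. Gene positions are from GENCODE on GRCm38. Calculations used Python 3.11.15, NumPy 2.4.6, SciPy 1.17.1, pandas 2.3.3 and matplotlib 3.10.9, with edgeR 4.0.16 for TMM factors. Alternatives changed the totals, the minimum of UMIs per gene and spot, the size of the groups, the spot filters and the ranking genes.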

Additional observations from a re-analysis of the deposited data

Results flagged for a closer look

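For 3 genes the day 7 and day 4 sections differed in direction by at least 2-fold each way, and with 1 mouse per day these differences were not tested. Ccl21a, a chemokine of lymphatic vessels with near-identical copies, had a log2 ratio of collagen-rich over remote spots of 1.52 on day 7 and -2.33 on day 4. Igha, the heavy chain gene of immunoglobulin A, had 5.84 and -3.00, and 76 of its 92 UMIs on day 7 came from 1 spot. Nppb, the natriuretic peptide B gene of stressed cardiomyocytes, had -2.64 on day 7 and 1.00 on day 4.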

How the results depend on the processing

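No paired analysis was possible because each day had 1 section, and leaving out a replicate was not possible for the same reason. The counts moved with the scaling. Against 3644 genes at least 2-fold higher and 1022 lower, centring on the median gene gave 1538 and 1906 and TMM factors gave 1519 and 1921, and 7456 were higher with no minimum beyond 1 UMI in each group, where more genes were counted. Of 36 counts, 31 stayed within 1.5 times. Taking the top 24% of spots, which by construction adds spots of lower collagen share, turned the log2 ratio of Ankrd1 to 0.96, that of Des to 0.0026, and the medians of the cardiomyocyte stress list to 0.063 and of the adipocyte list, with few genes measured, to 2.78. The adipocyte median also turned, to 1.66, with no minimum. Over all alternatives, 693 list medians stayed within 1.5-fold and 2421 values of named genes stayed within their counting interval. Another 146 medians and 723 values moved beyond these limits. A further 3 medians and 2 values, reported at 2-fold or more, changed sign. In all, 15 medians (of 7 lists) and 40 values (of 17 named genes) lay on the other side of 0 from the reported value, most of them of a reported value within 2-fold and turned by the scaling, as for Rgs5 (-0.55 when centred on the median gene) and Tnfrsf12a (-0.58). Others turned with the choice of spots, as for Hbegf (0.64 with the top 24% of spots) and the median of the neutrophil list, which has 2 genes measured (-3.07 with the top 6%). Lists whose median lay between 0 and 0.91, namely neutrophil, pericyte, smooth muscle and angiogenesis genes, fell below 0 when centred on the median gene. The alternative without spots of smooth muscle UMIs was chosen after seeing the data. Depth limits genes of few UMIs in the collagen-rich spots, where the median interval of a log2 ratio was 1.37 wide.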
